A study of Canis lupus familiaris with 29 samples.

Results

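The 10 normal adrenal medullas (NAMs) of a canine study of 29 samples were ordered by CYP11A1, the mitochondrial enzyme that cuts the side chain of cholesterol in the first step of steroid synthesis. CYP11A1 is a marker of the adrenal cortex, and the order was read as one of cortical content, which was not measured in any other way. The study had also sequenced pheochromocytomas and paragangliomas (PPGLs), tumors of the chromaffin cells, as 7 samples of PPGL group 1 and 12 of PPGL group 2. The NAMs were frozen medullas, dissected from the adrenals of healthy research dogs that had not been euthanized for this work. Sequencing of stranded mRNA gave single-end reads 50 bp long, aligned to CanFam3.1, and the authors deposited how many fell on the exons of each gene. Each NAM was a different dog, and the labels gave no age, sex, breed or batch. The 12 tumors of group 2, from surgery or taken after euthanasia of client-owned dogs, served below as samples that the order had not used.

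The medulla makes and stores catecholamines. Tyrosine hydroxylase and DOPA decarboxylase make dopamine, dopamine beta-hydroxylase turns it into noradrenaline inside chromaffin granules, and PNMT turns noradrenaline into adrenaline. The surrounding cortex makes mineralocorticoids, glucocorticoids and, in many species, androgens from cholesterol, under the control of angiotensin, ACTH and the transcription factor NR5A1, also called steroidogenic factor. The border between the 2 tissues is irregular in many mammals, and cortical cells can lie within the medulla.

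CYP11A1 was counted at 2582, 2827, 3551, 4531 and 5920 CPM (count x 1e6 / sample total) in NAMs 4, 5, 10, 3 and 2, and at 6552, 6805, 7501, 7740 and 9526 CPM in NAMs 1, 7, 6, 9 and 8. These values chose the members: the first 5 NAMs are called the low side and the last 5 the high side, and per-sample values below follow this order. The samples next to the division were NAM 2 at 5920 CPM and NAM 1 at 6552 CPM, and the series of values had no wide gap there. The labels describe all 10 samples as cells of a healthy adrenal medulla, yet even NAM 4 held 2582 CPM of CYP11A1; the amount of cortical tissue in a sample was not tested. Because the division was selected on a transcript of these libraries, the differences between its sides are given as a description, with no p-value for a gene, and counts at a threshold describe them only.

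Totals of the low side were 35918182, 25932638, 24756267, 30563942 and 25055395 counts, and those of the high side 24644369, 26829233, 32104771, 19258054 and 21894068. The mean total was 24946100 ± 4913060 on the high side and 28445300 ± 4789220 on the low side (SD, n = 5 each), a difference of -3499190 counts, and the sides overlapped. No p-value is given for it, since the order itself was set by a share of the total. A level of 3 counts, taken as the floor of detection, was 0.0835 CPM in NAM 4 and 0.156 CPM in NAM 9; it covers counting error only, since reads copied by PCR are not independent molecules. Reads on mitochondrially encoded genes made up 4.60, 8.58, 7.13, 6.93 and 10.9% of the counts on the low side and 10.1, 9.87, 12.6, 14.0 and 10.6% on the high side. NAM 4 had the smallest mitochondrial share and NAM 9 the largest, and the sides overlapped through NAM 2; the part of this share in the differences below was not tested. The strand setting of the counting and the handling of reads that match several genes are not given in the sources used here, so the values of close paralogs (the CYP11B, CYP21 and HSD3B families) and of overlapping genes are uncertain. Every pair of the NAMs differed far beyond counting noise (chi-square per degree of freedom 48.5 to 417 over 45 pairs), so no library was present in 2 copies.

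Of 30951 genes listed, 21508 had a count in at least 1 NAM and 14406 passed the low-count filter. Levels were scaled between samples by the trimmed mean of M-values (TMM) and are TMM-normalized CPM unless stated otherwise. A gene was called cortex-linked when its lowest value on the high side lay above its highest value on the low side, and medulla-linked in the opposite case. There were 591 cortex-linked genes (4.1% of those tested) and 818 medulla-linked genes (5.68%). The log2 difference of high minus low side, with its standard error (SE), came from edgeR, which put 692 genes (4.8%) above and 1068 (7.41%) below 0 at an adjusted p under 0.05. Across all genes tested, the median log2 difference was 0.01. Cortex-linked genes had a median difference of 0.63 and reached from 0.08 to 4.20, while medulla-linked genes had a median of -0.76 and reached from -2.79 to -0.14. The size of the difference was over 1 in 124 of the former and 178 of the latter. Together, the cortex-linked genes took 6.70, 8.78, 9.10, 7.50 and 10.8% of all counts on the low side and 13.5, 12.9, 13.6, 14.2 and 14.1% on the high side. The medulla-linked genes took 13.5, 11.6, 11.1, 12.5 and 9.06% and 6.92, 7.59, 6.35, 7.17 and 5.41%. NAM 2 lay between the other samples of its side and the high side in both shares. These genes were chosen for lack of overlap between the sides, so the separation of both shares is no independent result. Fewer cells of a type and less RNA per cell cannot be told apart in these bulk libraries.

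**Figure D1:**
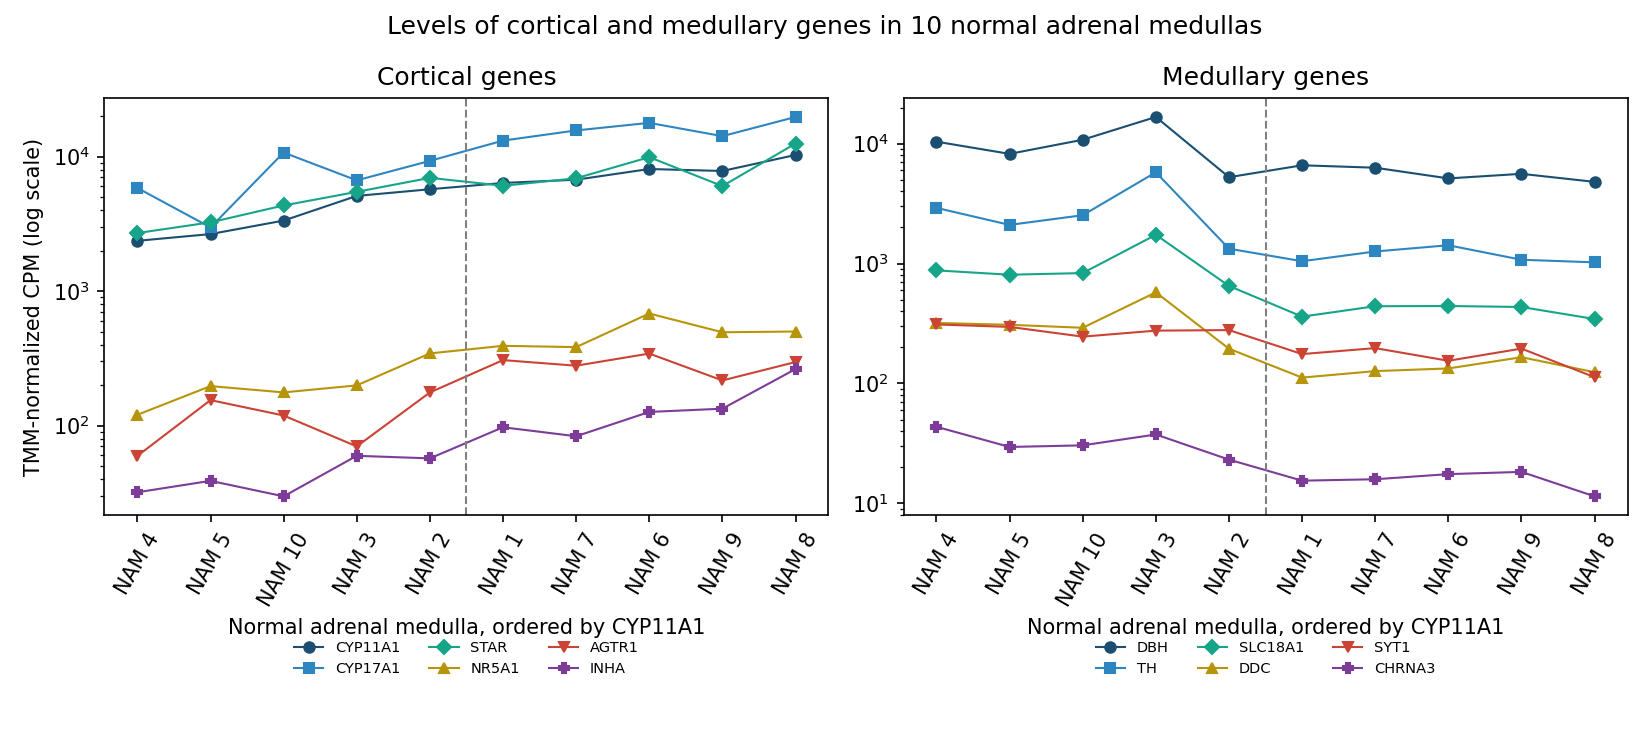
TMM-normalized CPM (log axis) of 6 cortical genes (left) and 6 medullary genes (right) in each of the 10 NAMs, ordered from the least to the most CYP11A1; each point is 1 sample and the dashed line parts the low side from the high side. CYP17A1 went from 2976 in NAM 5 to 19724 in NAM 8, and CHRNA3 from 43.5 in NAM 4 to 11.4 in NAM 8.

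The counts of genes depended on single libraries. Leaving out 1 NAM raises the number of genes without overlap by construction; it gave 1200 cortex-linked genes without NAM 2, 1177 without NAM 7 and 889 without NAM 9, and 1600 medulla-linked genes without NAM 2. By edgeR, no gene passed in either direction without NAM 6, although 1793 were above and 2075 below 0 at an unadjusted p under 0.05 and DESeq2 gave 891 and 1248. Without NAM 8 edgeR also gave 0 and 0, against 1695 and 2029 unadjusted and 840 and 1203 by DESeq2. The edgeR counts were 183 above and 266 below 0 without NAM 4, 205 and 293 without NAM 1, 271 and 407 without NAM 3, and 296 and 490 without NAM 5. Higher genes were 401 without NAM 10 and 1241 without NAM 2, and lower genes were 651 without NAM 9.

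Steroid synthesis is the defining work of the cortex, and 13 of the 16 genes listed for it were found and passed the filter. Their median log2 difference was 0.78, against 0.01 over all genes. Of the 13, 4 were cortex-linked and none was medulla-linked, against 4.1% and 5.68% of all genes tested. CYP11A1, separated by the rule itself, is among them; without it, 3 of 12 were cortex-linked and the median was 0.75. CYP11A1 itself (chromosome 30, 37473901 to 37487507), which set the order, was at 3838 ± 1496 on the low and 7862 ± 1536 on the high side (SD, n = 5 each), a log2 difference of 1.03 (SE 0.26). CYP17A1, the hydroxylase that leads to cortisol and androgens (chromosome 28, 15293106 to 15298852), was at 5848, 2976, 10726, 6662 and 9302 on the low side and 13159, 15665, 17832, 14200.2 and 19724 on the high side. NAM 5 was lowest and NAM 8 highest, NAM 10 led the low side, and the sides did not overlap (log2 difference 1.18, SE 0.30). SRD5A1, a steroid reductase, was at 10.3, 12.3, 12.6, 8.66 and 12.6 on the low and 20.4, 13.2, 15.9, 16.5 and 26.7 on the high side. HSD17B1, which makes active estrogens and androgens, was low throughout, at 1.91, 1.52, 1.29, 0.848 and 1.23 and 1.97, 2.10, 2.22, 2.99 and 2.47. Both were cortex-linked by narrow margins, with log2 differences of 0.71 and 0.78.

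The most abundant steroid gene per transcript length was STAR, the carrier that brings cholesterol into mitochondria (chromosome 16, 27326355 to 27331025). Its mean was 10552 TPM (the same scale after division by gene length), against 8778 for CYP17A1 and 2886 for CYP11A1. STAR stood at 2702, 3246, 4333, 5472 and 6954 and 6072, 6903, 9911, 6039.7 and 12507 CPM on the low and high side. NAMs 8 and 6 were highest, but NAM 2 exceeded NAMs 1, 7 and 9, so the sides overlapped (log2 difference 0.87, SE 0.29). HSD3B2, the dehydrogenase that makes progesterone, varied most: 1275, 938, 3678, 298 and 2745 on the low side and 1621, 5608, 7079, 4263 and 6415 on the high side. NAM 3 held the least by a wide margin although it ranked above 3 other NAMs for CYP11A1, and NAM 10 and NAM 2 lay above NAM 1. CYP21A2, the next enzyme on the way to cortisol and aldosterone, was at 2569, 2207, 4244, 4704 and 6464 and 4842, 4668, 7125, 5352 and 9994, with NAM 2 above 3 samples of the high side. FDXR, the reductase that passes electrons to the mitochondrial steroid enzymes, was at 143, 194, 208, 182 and 313 and 486, 313, 389.6, 381 and 473, where NAM 2 and NAM 7 nearly coincided. Of the rest, FDX1, the ferredoxin between FDXR and CYP11A1, differed by 0.84 (SE 0.29), POR by 0.56 (SE 0.28), TSPO by 0.38 (SE 0.17) and CYB5A by -0.19 (SE 0.14), all with overlap.

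Regulators and receptors of the cortex came next: 15 of 16 listed genes were found and 12 passed the filter, with a median of 1.00. Of the 12, 5 were cortex-linked and 1 was medulla-linked, against 4.1% and 5.68% of all genes. NR5A1, the transcription factor that switches on the steroid genes (chromosome 9, 58463445 to 58484999), was at 120.3, 197, 177, 199 and 344 on the low and 392, 383, 681, 494 and 501 on the high side. NAM 4 was lowest, NAM 6 highest, NAM 2 came close to NAM 7, and the sides did not overlap (log2 difference 1.24, SE 0.26). NR0B1, known as DAX1, a repressor that binds NR5A1 (chromosome X, 25396527 to 25401715), was scarce but separated: 1.58, 3.15, 3.81, 1.99 and 2.58 against 8.60, 6.31, 5.48, 10.4 and 7.35. INHA, the alpha subunit of inhibin (chromosome 37, 26080510 to 26083391), was at 31.9, 38.8, 29.8, 59.6 and 57.0 and 97.2, 83.3, 126, 134 and 263. NAM 8 alone held about as much INHA as the other 2 leading samples, NAMs 9 and 6, put together, and the difference was 1.70 (SE 0.32). AGTR1, the receptor by which angiotensin drives aldosterone output (chromosome 23, 43614035 to 43616238), was at 59.5, 155, 119, 70.0 and 176 and 307, 279, 343, 217 and 297. RARRES2, the secreted adipokine chemerin and the most abundant member of the list per length (mean 715 TPM), was at 156, 232, 274, 305 and 453 and 631, 593, 569.9, 650.1 and 643. The high side was level for RARRES2, while values on the low side were higher step by step from NAM 4 to NAM 2.

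The ACTH receptor and its partners parted ways. MC2R, the receptor itself, was at 28.3, 32.0, 52.4, 37.2 and 64.3 on the low side and 65.6, 54.2, 99.0, 74.8 and 101 on the high side; NAM 2 lay above NAM 7, so the sides overlapped (log2 difference 0.88, SE 0.25). MRAP, which carries MC2R to the cell surface, was at 68.5, 53.9, 83.9, 332 and 180.4 and 85.4, 223, 236, 90.8 and 350.5, with NAM 3 and NAM 8 highest. MRAP2, the related accessory protein that also works with other melanocortin receptors, was medulla-linked at 35.4, 38.4, 34.2, 38.9 and 24.6 and 18.2, 20.9, 16.4, 19.1 and 13.7 (log2 difference -0.96, SE 0.15). All 10 markers of the zona glomerulosa, the outer aldosterone-making layer, passed the filter, with a median of 0.82. Of these, 1 (AGTR1) was cortex-linked, against 4.1% of all genes. The gene named CYP11B2, by name the last enzyme of aldosterone synthesis and the most abundant of the list per length, was at 1553, 1261, 2324, 2061 and 1917 and 1455, 2686, 2492, 2601 and 3632. NAM 1, on the high side, lay among the 2 lowest values, and the difference was 0.50 (SE 0.23). DAB2, an endocytic adaptor of that zone, was at 104, 220.2, 244, 88.2 and 407 and 413, 371, 384, 228 and 375, where NAM 2 lay above 4 samples of the high side.

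Cholesterol supply did not follow CYP11A1 as a group: the median of 22 genes tested, out of 23 listed, was 0.13. Of the 22, 1 was cortex-linked and 2 were medulla-linked, against 4.1% and 5.68% of all genes. NSDHL, an enzyme of cholesterol synthesis, was medulla-linked with a log2 difference of -0.57 (SE 0.14). STARD3, a cholesterol carrier of late endosomes, was medulla-linked at 116, 94.6, 89.9, 142 and 104 and 74.1, 80.9, 70.7, 69.5 and 79.4. SCARB1, the receptor that takes cholesterol ester from high-density lipoprotein and the most abundant member per length, was at 1422, 978, 1566, 2844 and 3056 and 2838, 3708, 4174, 2199 and 4959. NAM 9 lay below NAMs 3 and 2, so the sides overlapped (log2 difference 0.86, SE 0.33). NPC1, which exports cholesterol from lysosomes, differed by 0.66 (SE 0.16), and SOAT1, which esterifies cholesterol for storage, by 0.86 (SE 0.26).

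HSD11B2, which inactivates cortisol and so protects the mineralocorticoid receptor in kidney and other target tissues (chromosome 5, 81966937 to 81968991), was at 631, 784, 661, 702 and 818 and 1241, 839, 1992, 1816 and 1909. It was the cortex-linked member among 12 genes of glucocorticoid response and metabolism, whose median was 0.04, and the most abundant of them per length. Of all genes tested, 4.1% were cortex-linked. The low side was nearly level for HSD11B2, NAM 7 lay just above it, and NAMs 6, 9 and 8 had the most (log2 difference 1.12, SE 0.22). TSC22D3, a glucocorticoid-induced gene, differed by 0.66 (SE 0.19), FKBP5, another such gene, by -0.28 (SE 0.26), and NR3C1, the glucocorticoid receptor, by -0.54 (SE 0.15). Summed over the list, the level was 2134, 2107, 1557, 2442 and 2199 CPM on the low side and 2323, 2015, 3367, 2967 and 3397 CPM on the high side, with overlap.

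The summed level of the steroid genes, in CPM without TMM scaling as for all sums here, was 18752, 15237, 31893, 23040.4 and 36541 CPM on the low side and 36688, 44918, 50858, 41945 and 61002 CPM on the high side. Without CYP11A1 the sums were 16170.4, 12410.0, 28341, 18509 and 30621 and 30135, 38112, 43356, 34205 and 51476 CPM, so that NAM 2 lay just above NAM 1, and NAM 5 and NAM 8 were the extremes. Cortical regulators summed to 629, 887, 915, 1036 and 1476 and 1767, 1807, 2095, 1743 and 2143 CPM. Of the 12 steroid genes other than CYP11A1, NAM 8 was among the 5 highest samples for 12, NAM 6 for 11, NAMs 7 and 9 for 9 each and NAM 1 for 7, while NAM 2 was so for 6, NAM 10 for 4, NAMs 4 and 3 for 1 each and NAM 5 for 0.

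Genes of the catecholamine pathway ran the other way. All 14 listed genes passed the filter; 3 were medulla-linked and 1 was cortex-linked, against 5.68% and 4.1% of all genes, and the median log2 difference was -0.82. No set test was made for this or any other list. TH, tyrosine hydroxylase, the rate-limiting enzyme (chromosome 18, 46327137 to 46335602), was at 2913, 2101, 2530.0, 5769 and 1331 on the low side and 1046, 1261, 1421, 1076 and 1024 on the high side. NAM 3 held by far the most, and NAM 2 lay below NAM 6, so the sides overlapped in spite of a log2 difference of -1.33 (SE 0.32). DDC, DOPA decarboxylase (chromosome 18, 1803273 to 1867616), was at 319.6, 309, 291, 575 and 195 and 112, 127, 133, 166 and 124, without overlap (log2 difference -1.35, SE 0.24). DBH, dopamine beta-hydroxylase, the most abundant of the group per length (mean 5579 TPM), was at 10385, 8218, 10774, 16689.6 and 5251 and 6599, 6299.5, 5129, 5602 and 4801. NAM 2 was lower than 3 of the high side for DBH, and NAM 3 again led (log2 difference -0.85, SE 0.26). PNMT, the adrenaline-making enzyme whose gene responds to cortisol, was at 2925, 2708, 2167, 4606 and 2596 and 1922, 2361, 1848, 1540.0 and 2114. NAM 3 was highest and NAM 9 lowest, NAM 7 lay above NAM 10, and the difference was -0.62 (SE 0.20).

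Of the 2 vesicular transporters, only SLC18A1 separated the sides. SLC18A1, the vesicular transporter of chromaffin cells (chromosome 25, 36872636 to 36904056), was at 877, 807, 833, 1738 and 651 and 361, 441, 443, 434 and 345, without overlap, a log2 difference of -1.28 (SE 0.24). SLC18A2, the second vesicular transporter, was scarcer at 83.0, 46.9, 107, 239 and 33.4 and 68.8, 56.4, 41.5, 49.9 and 39.4; NAM 2 was the lowest sample of all for it. QDPR, which regenerates the cofactor of TH, was at 836, 592, 616, 705 and 514 and 381, 409, 405, 351 and 312 and was medulla-linked (log2 difference -0.81, SE 0.14). GCH1, the first enzyme of cofactor synthesis, and CYB561, the granule cytochrome that supplies electrons to DBH, differed by -0.81 (SE 0.22) and -0.83 (SE 0.21).

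The monoamine oxidases did not share 1 direction. MAOB, monoamine oxidase B, was at 228, 272, 397, 438 and 307 on the low side and 492, 453, 598, 610.1 and 665 on the high side and was the cortex-linked member (log2 difference 0.78, SE 0.19). MAOA, monoamine oxidase A, the neighbouring gene, was at 88.7, 46.0, 78.5, 80.8 and 31.7 and 40.6, 49.9, 41.0, 39.1 and 43.0, with overlap (log2 difference -0.61, SE 0.25). They lie on chromosome X at 37765813 to 37883955 and 37677493 to 37744757. The catecholamine genes summed to 21729, 17256, 20084, 28924 and 12051 CPM and 12121, 12411, 9970.4, 10544 and 9319.6 CPM, so that NAM 2 was within the high side. Without NAMs 3, 6 and 8, left out after seeing the data, the median of the list was -0.49.

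Granins and prohormone processing enzymes make up the granule matrix and cut its peptides. Of 11 listed, 10 were found and passed, with a median of -0.88, and 2 were medulla-linked, against 5.68% of all genes. CHGB, chromogranin B, the most abundant of them per length at a mean of 13036 TPM (chromosome 24, 15917215 to 15930158), was at 40597, 36464, 27174, 59617 and 15166 and 5541, 16694, 22005, 16504 and 19619.9. NAM 1 had the least and NAM 3 the most, and NAM 2 lay below 4 samples of the high side (log2 difference -1.16, SE 0.40). SCG5, the chaperone of a prohormone convertase, was medulla-linked at 1395, 1131, 1269, 1776 and 872 and 764, 832, 738, 734 and 609. CPE, the carboxypeptidase that trims cut peptides, was medulla-linked at 537, 482, 389, 480.2 and 312 and 277, 285, 249.6, 269 and 211. PCSK1, a prohormone convertase, was at 735, 486, 499, 1365 and 303 and 266, 275, 355, 277 and 232, with NAM 2 inside the high side. PAM, which amidates peptides, was nearly even, with a log2 difference of -0.24 (SE 0.13). The summed level was 53655, 47000.3, 38165, 64659 and 20521 CPM and 11070.5, 22346, 25306, 20648 and 22408 CPM.

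Among chromaffin neuropeptides, 12 of 13 were found and 11 passed, with a median of -0.86, and 1 was medulla-linked, against 5.68% of all genes. PENK, the enkephalin precursor and the most abundant per length (mean 20142 TPM), was at 9779, 9457, 12879, 24120.1 and 6455 on the low and 6030.0, 5534, 7608, 6195 and 7015 on the high side. NAM 3 was highest, NAM 2 lay within the range of the high side, and the difference was -0.95 (SE 0.31). ADM, adrenomedullin, a vasodilator peptide first isolated from pheochromocytoma, was medulla-linked at 293, 317, 358, 229 and 215 and 175, 212, 139.7, 167 and 82.1, although NAM 2 and NAM 7 nearly met (log2 difference -0.86, SE 0.23). CARTPT, the precursor of the CART peptide, was at 2682, 4141, 4284, 4748 and 3306 and 3098, 2683, 2049, 2280.4 and 2008, where NAM 4 was level with NAM 7. NPY, neuropeptide Y, differed by -0.91 (SE 0.37). OXT, oxytocin, went the other way, by 1.71 (SE 0.73), with overlap.

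Of 11 sympathoadrenal transcription factors, 10 were found and passed, with a median of -0.78, and 1 was medulla-linked, against 5.68% of all genes. PHOX2A, which specifies noradrenergic cells, was at 203, 103, 120.1, 167 and 113 and 69.7, 81.9, 80.0, 87.3 and 68.0 and did not overlap (log2 difference -0.87, SE 0.18). GATA3, a zinc finger factor needed for sympathetic and chromaffin cells, was at 181, 161, 143, 104 and 97.9 and 80.6, 100.1, 58.3, 72.5 and 33.0, and ISL1, a homeodomain factor of the same lineage, differed by -0.92 (SE 0.21). HAND2, the most abundant of the list per length, differed by -0.78 (SE 0.28). Across this list, NAM 2 was among the 5 highest samples for 2 of 10 genes, against 10, 8, 8 and 9 for NAMs 4, 5, 10 and 3 and 1, 3, 2, 6 and 1 for NAMs 1, 7, 6, 9 and 8.

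Exocytosis genes release the granules. Of 14 exocytosis genes, 13 were found and passed, with a median of -0.69, and 3 were medulla-linked, against 5.68% of all genes. CADPS, which primes dense-core granules, was at 396, 331, 304, 472 and 268 and 189, 217, 189.6, 207 and 147. SYT1, a calcium sensor of release, was at 311, 296, 246, 276 and 279 and 176, 197, 155, 195 and 113. In both, all 5 samples of the low side exceeded all 5 of the high side. SYP, the vesicle protein synaptophysin, was at 326, 282, 337, 403 and 182 and 155, 183, 143, 159.8 and 123, missing separation by the near tie of NAM 2 and NAM 7. SNAP25, the most abundant per length, differed by -0.53 (SE 0.30). RAB3A, a granule GTPase, was at 112, 67.6, 47.3, 167 and 41.6 and 39.2, 39.2, 147, 51.2 and 209.9; NAMs 3, 6 and 8 were the highest samples, on both sides.

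Excitability genes had the largest share without overlap of the medullary lists, 5 of 10 tested out of 11 listed, with a median of -0.82. All 5 were medulla-linked, against 5.68% of all genes. CHRNA3, a subunit of the nicotinic receptor by which splanchnic nerves drive chromaffin cells (chromosome 13, 38328814 to 38346246), was at 43.5, 29.6, 30.5, 37.6 and 23.2 on the low side and 15.5, 15.9, 17.5, 18.3 and 11.4 on the high side, a log2 difference of -1.06 (SE 0.18). CHRNB4, its partner subunit and chromosomal neighbour at 38312173 to 38328341, differed by -0.79 (SE 0.33) with overlap. CACNA1D, an L-type calcium channel, was at 70.9, 67.0, 57.7, 100.2 and 45.7 and 36.7, 33.4, 35.3, 33.0 and 29.8. The high side was tight for CACNA1D, and NAM 2 was the lowest of the low side. CACNA1B, the N-type calcium channel, and the sodium channel genes SCN3A and SCN3B were medulla-linked as well, at log2 differences of -0.88, -0.77 and -0.89. The list summed to 576, 513, 429, 572 and 335 CPM and 280.3, 279, 254, 277 and 190.3 CPM, with no overlap.

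**Figure D2:**
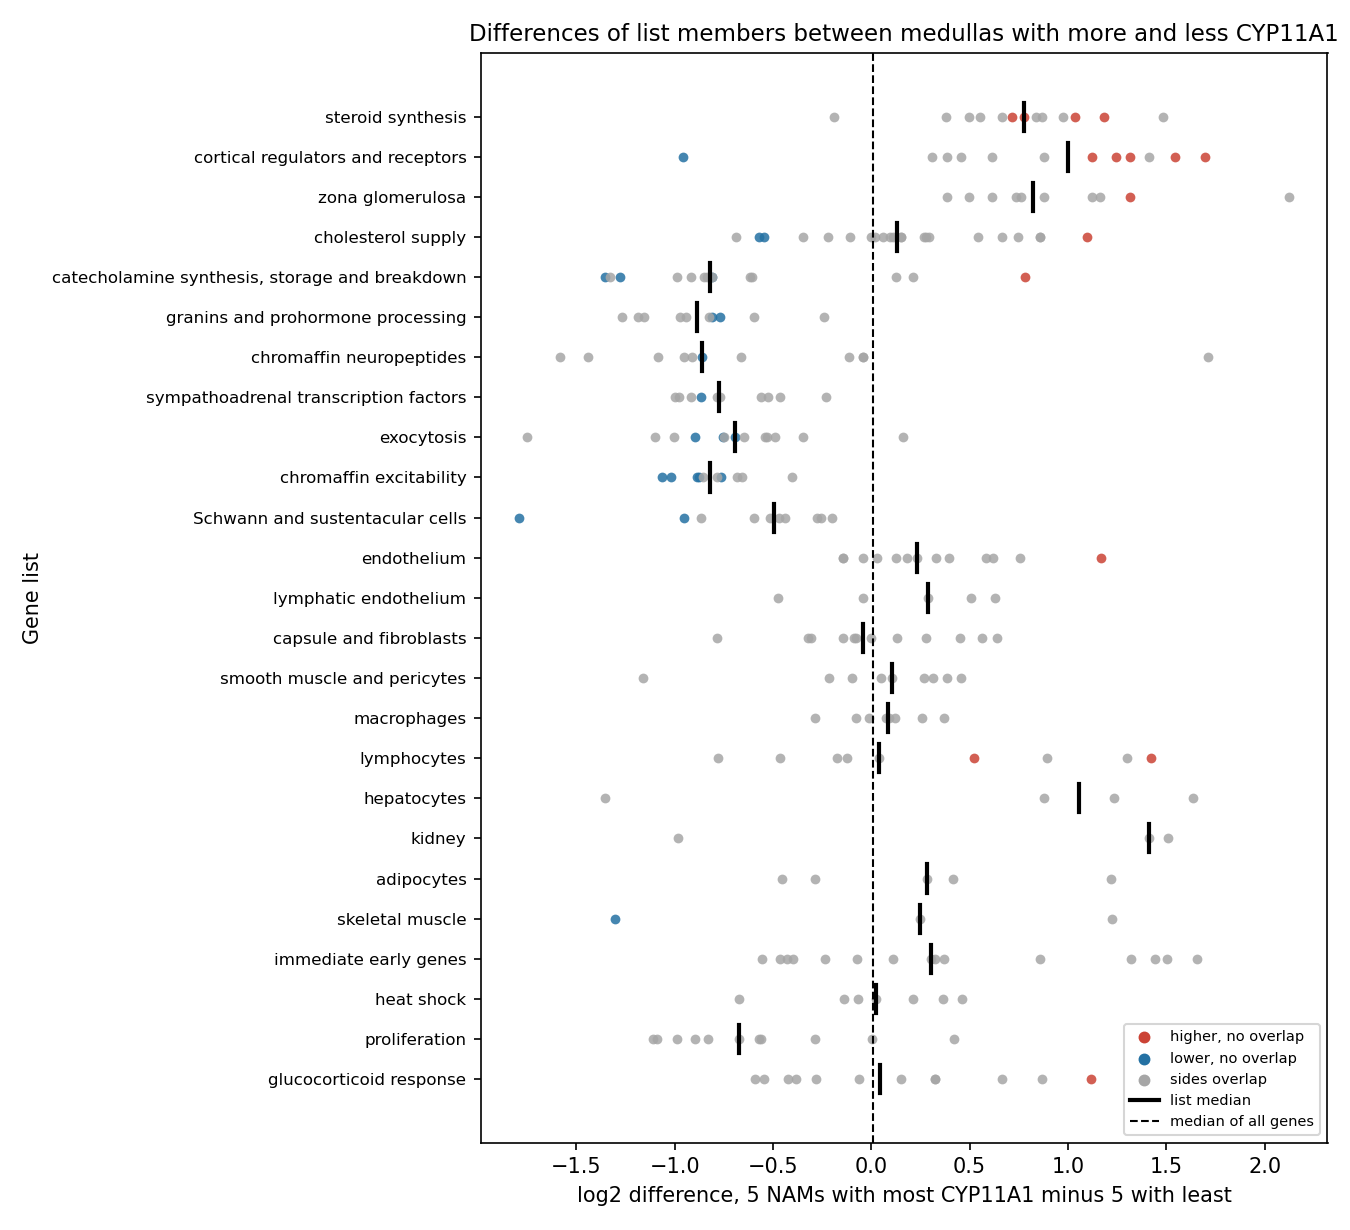
Log2 difference of high minus low side (horizontal axis) for each tested gene of 25 lists (vertical axis), with members that did not overlap in color, a bar at each list's median and a dashed line at the median of all genes, 0.01. Medians were 0.78 for steroid synthesis and 1.00 for cortical regulators, and lay between -0.69 and -0.88 for the 6 medullary lists.

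Other cell types of the gland were read from their own marker lists, and their part in the differences was not tested. Schwann and sustentacular cells, the glia that wrap chromaffin cells and nerves, had 11 of 12 markers found and 10 tested, and a median of -0.49. Of the 10, 2 were medulla-linked, against 5.68% of all genes. GFAP, an intermediate filament of glia, was at 5.71, 3.01, 9.51, 6.86 and 2.47 and 1.70, 1.14, 1.85, 1.94 and 1.33 (log2 difference -1.79, SE 0.37). L1CAM, an adhesion molecule of nerve, glia and chromaffin cells and the most abundant marker per length, was at 785, 544, 575, 663 and 429 and 302, 363, 311, 347 and 228. SOX10, the defining transcription factor of these glia, was at 14.4, 5.61, 6.36, 8.77 and 3.51 and 4.30, 5.83, 9.27, 4.51 and 4.59, with overlap. The list summed to 1108, 741, 923, 755 and 582 CPM and 413, 559, 435, 494 and 319 CPM, and no defining marker tested was at 0.

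Vascular and stromal lists had medians between -0.04 and 0.29. Endothelium (13 of 13 tested) had a median of 0.23, and 1 gene was cortex-linked, against 4.1% of all genes. It summed to 1058, 1116, 1536, 602 and 897 CPM and 1099, 1574, 812, 1359 and 769 CPM, with PLVAP, a protein of fenestrated vessels, most abundant per length. Its cortex-linked member CLDN5, a tight junction protein, was scarce at 1.15, 1.20, 0.951, 0.885 and 0.771 and 2.88, 1.88, 2.25, 1.21 and 2.96. PECAM1, a defining endothelial marker, differed by -0.04 (SE 0.27). Lymphatic endothelium (5 of 6 tested, median 0.29, LYVE1 most abundant) summed to 276, 276, 294, 162 and 212 CPM and 222, 358, 238, 288 and 208 CPM. Capsule and fibroblast genes (12 of 12 tested, median -0.04, THY1 most abundant) summed to 857, 1059, 1293, 1052 and 780.0 CPM and 668, 681, 789.6, 905 and 622 CPM. Smooth muscle and pericyte genes (9 of 9 tested, median 0.11) summed to 1674, 1174, 1117, 1395 and 496 CPM and 397, 741, 665, 1005 and 566 CPM. Their most abundant member per length was RGS5, a pericyte regulator of G proteins, at 1226, 785, 661, 1357 and 204 and 139.9, 361, 377, 673 and 340.0. None of these 3 lists had a member without overlap.

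Leukocyte genes showed a mixed picture. Macrophage markers (8 of 10 tested, none without overlap, median 0.08, C1QB most abundant) summed to 801, 704, 1512, 369 and 1146 CPM and 706, 1066, 766, 1151 and 829 CPM. Of 15 lymphocyte markers, 9 were tested, with a median of 0.04 and CD79A most abundant, and 2 were cortex-linked, against 4.1% of all genes. The list summed to 371, 431, 434, 411 and 526 CPM and 638, 524, 541, 675 and 567 CPM. CD5, a surface protein of T cells, was at 16.2, 19.8, 9.06, 4.28 and 27.8 and 43.3, 29.9, 37.0, 55.9 and 40.4. CD79A, a part of the B-cell receptor, was at 265, 338, 350.1, 415 and 433 and 536, 438, 519.7, 577 and 515. LCK, a T-cell kinase, was lower on the high side, by -0.78 (SE 0.23), with overlap. The defining T-cell marker CD3E was near 1 CPM, between 0.403 and 1.83, in the same libraries (log2 difference -0.46, SE 0.40), and CD3D, CD3G, CD8A, MS4A1 and CD79B did not pass the filter. Neutrophil markers (2 of 5 tested, S100A8 most abundant) had a median of -1.20 and summed to 96.0, 59.3, 131, 98.5 and 44.1 CPM and 53.5, 67.9, 42.3, 60.8 and 40.8 CPM. No erythroid marker passed the filter, and the 6 found, AHSP the most abundant, summed to less than 1 CPM in every NAM.

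Markers of nearby organs were scarce or uneven. Kidney genes (3 of 7 tested, median 1.41) summed to 11.2, 16.8, 12.1, 6.64 and 7.42 CPM and 15.9, 19.2, 16.1, 13.2 and 36.4 CPM, and UMOD, SLC12A1, SLC34A1 and AQP2 did not pass. Hepatocyte genes (4 of 11 tested, APOA1 most abundant, median 1.05) summed to 290.2, 91.7, 101, 67.1 and 93.0 CPM and 81.8, 464, 161, 86.3 and 566 CPM. FGG, a fibrinogen chain, was highest in NAMs 8, 7 and 4, at 211, 0.435, 7.54, 39.7 and 29.9 and 1.93, 370.5, 9.17, 15.6 and 503, while FGA, FGB, TTR and AHSG did not pass. Adipocyte genes (5 of 8 tested, LPL most abundant, median 0.28) summed to 87.3, 70.2, 60.6, 59.3 and 94.0 CPM and 50.1, 84.5, 69.2, 61.4 and 85.9 CPM. Skeletal muscle genes (3 of 5 tested, median 0.25) summed to 103, 81.6, 93.8, 123 and 69.0 CPM and 79.5, 62.8, 61.6, 77.5 and 61.2 CPM. Their most abundant member ACTA1, a muscle actin, was medulla-linked at 67.3, 38.3, 46.8, 109.5 and 30.7 and 24.7, 24.1, 19.3, 29.2 and 21.5.

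Lists of cell states had no member without overlap. Immediate early genes (15 of 15 tested, NR4A1 most abundant, median 0.30) summed to 1049.9, 2142, 259, 2617 and 1234 CPM and 1242, 625, 3072, 1264 and 4082 CPM, with NAM 10 lowest and NAM 8 highest. Heat shock genes (7 of 9 tested, HSPB1 most abundant, median 0.02) summed to 1271, 1039, 1366, 1408 and 926 CPM and 897, 1096, 1441, 1401 and 1462 CPM. Proliferation genes (11 of 12 tested, UBE2C most abundant, median -0.67) summed to 24.2, 50.9, 102, 62.5 and 39.0 CPM and 31.5, 48.8, 38.3, 18.9 and 54.0 CPM, with NAM 10 highest and NAM 9 lowest.

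Beyond the lists, the 10 named cortex-linked genes with the largest difference were led by TNMD, tenomodulin, a membrane protein known from tendon (chromosome X, 74459313 to 74478170). It was at 0.408, 3.08, 0.152, 4.53 and 2.31 on the low side and 9.79, 16.7, 66.7, 37.7 and 61.1 on the high side, a log2 difference of 4.20 (SE 0.81). NAM 10 was near its detection floor and NAM 6 held the most. LAMA1, a laminin chain of basement membranes, was at 4.06, 8.94, 2.28, 3.72 and 10.5 and 24.8, 27.3, 28.9, 11.2 and 41.3. RYR1, the calcium-release channel of muscle, was at 1.73, 3.22, 3.31, 3.43 and 5.36 and 12.5, 9.85, 15.5, 8.29 and 13.6. TGM2, a tissue transglutaminase and the most abundant of the 10 per length (mean 346 TPM), was at 353, 259.9, 320.3, 164 and 418 and 615, 1258, 1115, 930.1 and 971; NAM 3 was lowest, NAM 7 highest, and the difference was 1.69 (SE 0.25). INHA, described above, was another of the 10. The remaining 5 were PLEKHB1, FAM241A, WIF1, an extracellular Wnt inhibitor, SCIN, an actin-severing protein described in chromaffin cells, and ZNF385B, with differences of 1.97, 1.91, 1.71, 1.68 and 1.63.

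At the other end, LGR5, a receptor for R-spondins and a stem cell marker in gut, was at 61.0, 49.2, 56.7, 176 and 57.5 on the low side and 23.0, 37.3, 13.6, 27.7 and 14.7 on the high side (log2 difference -1.78, SE 0.40). C5H11orf87, the dog gene named for an open reading frame of chromosome 11 in humans, was at 89.3, 24.1, 21.7, 65.3 and 37.8 and 8.68, 14.6, 16.3, 6.93 and 13.0 (log2 difference -2.00, SE 0.41). NAM 3 led the former and NAM 4 the latter. ISM1, a secreted protein, had a difference of -2.14 (SE 0.62) that leaned on NAM 3 with 51.6, against at most 8.29 in any other NAM. NRG3, a ligand of the receptor ERBB4, was at 6.40, 2.03, 3.96, 7.11 and 3.74 and 1.03, 1.99, 1.38, 0.892 and 0.197, so that NAM 5 and NAM 7 nearly touched. RIT2, a neuronal GTPase, differed by -1.82 (SE 0.49), CBLN2, an organizer of synapses, by -1.79 (SE 0.50), PTCHD4 by -1.81 (SE 0.34), ELFN2 by -2.01 (SE 0.53) and PPY, pancreatic polypeptide, by -1.73 (SE 0.55). GFAP, described with the glia, completed the 10.

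By abundance rather than by difference, the 10 leading cortex-linked genes, chosen after their values were seen, included CYP17A1 and CYP11A1. MT-CO1, a subunit of cytochrome oxidase, averaged 25683 TPM and was at 19319 ± 5973 on the low and 30680.3 ± 3998 on the high side (CPM, SD, n = 5 each). It was 1 of 3 cortex-linked genes among the 25 tested genes of the mitochondrial chromosome, against 4.1% of all genes. None of the 25 was medulla-linked. TPT1, the translationally controlled tumor protein, averaged 7091 TPM and differed by 0.72 (SE 0.15), and APOC1, an apolipoprotein, averaged 2530.5 TPM and differed by 1.39 (SE 0.33). Ribosomal protein genes RPL8, RPS12, RPL13 and RPL24 were also among the 10, at differences of 0.47, 0.50, 0.47 and 0.41, as was PEBP1, an inhibitor of RAF kinase, at 0.86 (SE 0.15). The most abundant medulla-linked genes were GNAS, which encodes a stimulatory G protein and granule proteins (mean 4358 TPM, difference -0.55, SE 0.15), and PSAP, a lysosomal precursor (mean 2088 TPM, difference -0.32, SE 0.10). SCG5, DKK3, ATP6V1B2, a subunit of the proton pump that acidifies granules, and APP were among the next, with differences of -0.81, -0.85, -0.77 and -0.60. Genes on chromosome X were 3.21% of the cortex-linked, 6.48% of the medulla-linked and 3.69% of all genes tested. Median abundance was 47.9 TPM for the cortex-linked and 24.5 TPM for the medulla-linked genes, against 17.1 TPM for all genes tested.

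NAM 2, the last sample of the low side, was intermediate for cortical genes and, for medullary ones, varied by list. It was among the 5 highest samples for 6 of the 12 steroid genes other than CYP11A1 and 7 of 12 cortical regulators. For medullary lists it was so for 4 of 14 catecholamine genes, 4 of 10 granin and processing genes, 5 of 13 exocytosis genes and 6 of 10 excitability genes, against 12 of 14, 10 of 10, 13 of 13 and 10 of 10 for NAM 3. The samples of the high side were so for 2 to 6 catecholamine genes and 0 to 5 granin and processing genes. They were so for 1 to 5 exocytosis genes and 0 to 2 excitability genes. When the NAMs were ranked by the mean log2 CPM of the other 12 steroid genes, NAM 2 (8.63) and NAM 1 (8.61) changed sides. With that division 136 genes were higher and 216 lower without overlap, and none of these was among the 591 and 818, since the pair swapped. By edgeR that division gave 1 higher and 0 lower genes (1156 and 1775 at an unadjusted p under 0.05, and 223 and 448 by DESeq2).

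Whether the cortex-linked genes also go with CYP11A1 in other samples was tested in the 12 tumors of PPGL group 2. CYP11A1 was between 13.5 CPM (tumor 7) and 4390.2 CPM (tumor 10) there, with a median of 461 CPM, so 1 tumor exceeded the 3 lowest NAMs. A slope, the log2 change of a gene per unit of log2 (CYP11A1 CPM + 1), was fitted by edgeR for 15773 genes, with p adjusted over all of them by the Benjamini-Hochberg method. It was positive at an adjusted p under 0.05 in 70 genes (0.444%), CYP11A1 itself included, and negative in 2 (0.0127%). Of the 590 cortex-linked genes other than CYP11A1, 586 could be tested; 22 (3.75%) rose with CYP11A1 and none fell, against 69 (0.437%) and 2 over all 15772 genes. At an unadjusted p under 0.05, 95 of the 586 rose and 9 fell, against 556 and 590 over all genes. DESeq2 was not run on the tumors. The slope was above 0 in 68.3% of the cortex-linked genes and in 47.6% of all genes, with medians of 0.04 and -0.0045.

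**Figure D3:**
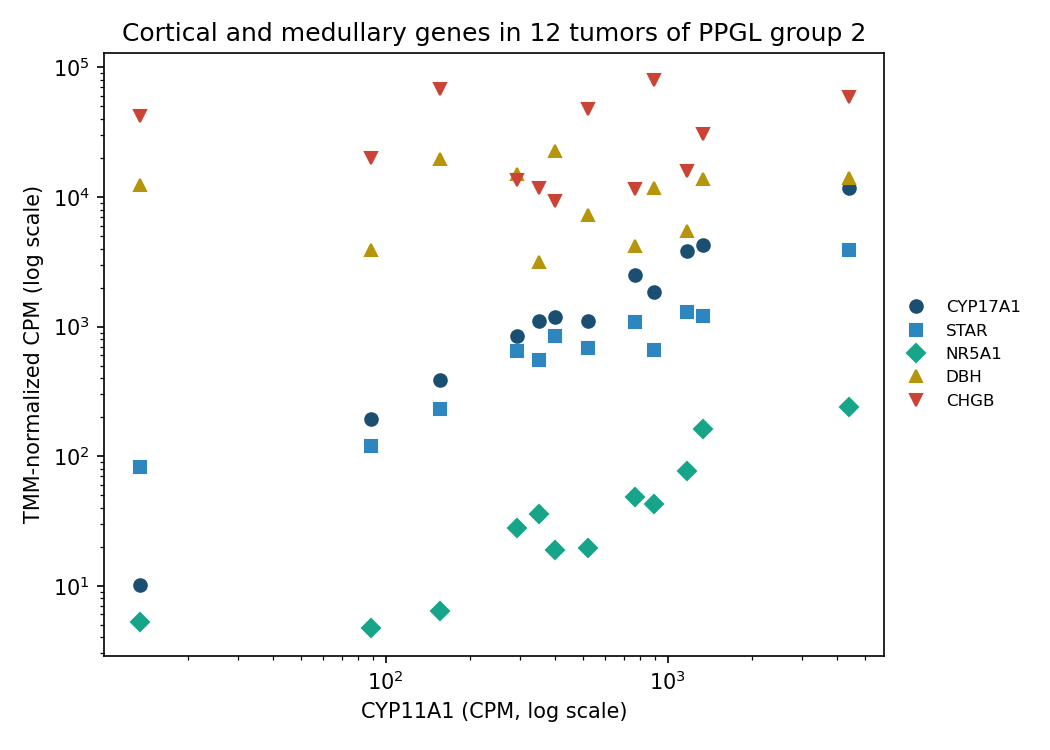
TMM-normalized CPM of 5 genes (vertical, log axis) against CYP11A1 CPM (horizontal, log axis) in the 12 tumors of PPGL group 2; each point is 1 tumor. CYP17A1 went from 10.2 in tumor 7 to 11708 in tumor 10, while DBH lay between 3153 and 22493 with a slope of -0.01.

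The medulla-linked genes gave no called slope: of 817 tested by edgeR, 0 rose and 0 fell. At an unadjusted p under 0.05, 5 (0.612%) were positive and 25 (3.06%) negative, against 3.53% and 3.74% of all genes. Their median slope was -0.0004, and 49.9% of the slopes were above 0. Among the 6 medullary lists together, 66 genes were tested, 0 were called, and 1 was positive and 1 negative at an unadjusted p under 0.05. Without tumor 10, edgeR also called none of them. At the unadjusted threshold, 2 of 10 granin and processing genes and 2 of 9 neuropeptide genes were then positive, and none was negative. TH was between 32.0 and 6501 with a median of 2213, and its slope was 0.25 (SE 0.25, adjusted p = 0.971). The slopes of DBH, CHGB, PENK and QDPR were -0.01 (SE 0.12), 0.03 (SE 0.13), -0.13 (SE 0.27) and -0.03 (SE 0.08). The difference between NAMs and tumors in these slopes was not tested.

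Of the 13 steroid genes, 7 had a called positive slope in the tumors, CYP11A1 included. CYP17A1 was at 10.2 in the lowest, 1152 at the median and 11708 in the highest tumor and had a slope of 1.20 (SE 0.08, edgeR adjusted p = 1.15e-05). It was above its median in 5 of the 6 tumors with the most CYP11A1. STAR was at 82.3, 669.9 and 3872 (slope 0.68, SE 0.07, edgeR adjusted p = 0.000226), above its median in 5 of the 6. CYP11B2, CYP21A2, HSD3B2 and FDX1, which overlapped between the sides of the NAMs, rose as well, with slopes of 0.99, 0.86, 0.92 and 0.69 (edgeR adjusted p = 9.80e-05, 0.000405, 0.00170 and 0.000155) and values above the median in 6, 6, 4 and 6 of the 6 tumors. Of the 3 other steroid genes that were cortex-linked in the NAMs, only CYP17A1 rose: SRD5A1 had a slope of -0.01 (SE 0.08) and HSD17B1, highest in tumor 7, of -0.22 (SE 0.09, edgeR adjusted p = 0.576).

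Of 13 cortical regulators, 5 rose; without tumor 10, edgeR called 0 of 13, with 6 positive and 1 negative at an unadjusted p under 0.05. Their slopes with and without tumor 10 were 0.75 and 0.72 for NR5A1, 0.93 and 0.98 for NR0B1, 0.83 and 0.83 for MC2R, 0.86 and 0.84 for MRAP and 0.65 and 0.54 for INHA. NR5A1 was at 4.70, 31.8 and 238 in the lowest, median and highest tumor (slope 0.75, SE 0.10, edgeR adjusted p = 0.00423). INHA was at 0.859, 6.50 and 56.9 (slope 0.65, SE 0.09, edgeR adjusted p = 0.00531), and NR0B1 had a slope of 0.93 (SE 0.14, edgeR adjusted p = 0.00865). MC2R and MRAP rose with slopes of 0.83 and 0.86 (edgeR adjusted p = 0.00333 and 0.0228). These 5 were above their medians in 5, 6, 5, 5 and 5 of the 6 tumors. AGTR1, which separated the NAMs, had a slope of -0.01 (SE 0.11, edgeR adjusted p = 1) and was highest in tumor 7, the one with the least CYP11A1, but above its median in 5 of the 6 tumors with the most. RARRES2 had a slope of 0.35 (SE 0.14, edgeR adjusted p = 0.588).

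In the cholesterol list 4 of 22 rose, among them SCARB1 (0.72, SE 0.07) and SOAT1 (0.35, SE 0.07). HSD11B2 was at 6.15, 130.3 and 1080.3 and had a slope of 0.97 (SE 0.13, edgeR adjusted p = 0.00351). In the zona glomerulosa list 1 of 10 rose (CYP11B2) and in the kidney list 1 of 4, LRP2, an endocytic receptor (slope 0.76, SE 0.13, edgeR adjusted p = 0.0143). In the other 21 lists edgeR called 0 of 192 genes. At an unadjusted p under 0.05, 3 (1.56%) were positive and 22 (11.5%) negative, against 3.53% and 3.74% of all genes. Negative ones were 5 of 12 capsule and fibroblast genes, 5 of 9 smooth muscle and pericyte genes and 6 of 13 lymphocyte genes. Without tumor 10, the negative ones among these were 6 of 12, 3 of 9 and 2 of 13, and edgeR called none. Tumor 11, at 88.8 CPM of CYP11A1, was highest for several members of these lists, picked after their values were seen. COL1A1, LUM, ACTA2 and CD2 were at 8004, 2502, 1159 and 55.3 there, against medians of 272, 67.6, 66.5 and 4.70. THY1 and CD5, of the same lists, were highest in tumor 2. The part of tumor 11 in these counts was not tested. TNMD, with the largest difference between the NAMs, had a slope of 1.18 (SE 0.30) that missed the threshold (edgeR adjusted p = 0.177); it was highest in tumor 2.

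Besides the listed genes, the 22 included 16 others, of which 2 had no name. Chosen after their values were seen, AIF1L, an actin-bundling protein, had a slope of 0.92 (SE 0.07, edgeR adjusted p = 1.30e-05), MCCD1 of 1.15 (SE 0.09), LMAN1L, a lectin-like protein, of 0.94 (SE 0.09) and ACSF2, an acyl-CoA synthetase, of 0.73 (SE 0.07). SEMA3B, a semaphorin, had 0.74, ACSBG1, another acyl-CoA synthetase, 0.74, APOB, an apolipoprotein, 0.68, DPP4, a membrane peptidase, 0.66, KCNK2, a background potassium channel, 0.63 and ESR1, the estrogen receptor alpha, 0.50. In the NAMs, AIF1L was at 99.7, 119.9, 146, 143 and 199.9 on the low and 268, 283, 335, 224 and 320.5 on the high side, and LMAN1L at 229.9, 318, 498, 365 and 385 and 755, 619, 920.3, 626 and 736.

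The number of called slopes depended on tumor 10. Without it, 6 of 12 steroid genes other than CYP11A1 were called, 1 of 10 zona glomerulosa genes and 1 of 22 cholesterol genes, and edgeR called 0 of 12 glucocorticoid genes and 0 of 3 kidney genes (1 and 2 positive at an unadjusted p under 0.05). The slope of HSD11B2 was then 0.97 (SE 0.17, edgeR adjusted p = 0.0582) and that of LRP2 0.66 (SE 0.19, edgeR adjusted p = 0.478). Still without it, 18 genes in all and 8 of 584 cortex-linked genes had a called positive slope, and all 18 and all 8 were among those called with all 12 tumors. The 8 were CYP17A1, AIF1L, MCCD1, LMAN1L, ACSF2, SEMA3B, DPP4 and APOB. The slope of CYP17A1 was then 1.26 (edgeR adjusted p = 9.71e-05), that of STAR 0.65 (edgeR adjusted p = 0.0102) and that of NR5A1 0.72 (edgeR adjusted p = 0.0704). The genes with a negative slope, FKBP10, which acts on collagen, and PCDHB2, a protocadherin, both chosen after their values were seen, had slopes of -0.53 and -0.69 and were highest in tumor 7. Their number was 1 without tumor 2, 4, 6 or 9, 6 without tumor 3 and 4 without tumor 11.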

How the data were processed

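The authors deposited raw counts of reads on exons per gene, which were used as given; their notes name FastQC, STAR, Picard and HTSeq, while the table is labelled as featureCounts output. Names came from the table for 18239 genes and from the study's supplement for 4. Genes under the edgeR low-count filter (minimum count 10, minimum total 15) were left out. Fits used R 4.3.3, edgeR 4.0.16 (quasi-likelihood, TMM, Benjamini-Hochberg adjusted p under 0.05), limma 3.58.1 and, as an alternative, DESeq2 1.42.0; figures used Python 3.11.15 and matplotlib 3.10.9. The SE was the absolute log2 difference divided by the square root of F. Genes were named when they belonged to at least 1 of 27 lists (308 entries, with some genes in more than 1 list). Others were among the 10 with the largest difference per direction at a mean of at least 1 CPM. The rest were stated to be chosen after their values were seen. The members and lists were chosen with earlier results of these data known. Alternatives changed the scaling, filter, ranking gene, number of samples, test and single libraries. The code was tested on simulated data. The 7 columns of PPGL group 1 entered no reported value. Some listed genes are not reported here. Promoter motifs and a gene table of another assembly were not used here.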

Additional observations from a re-analysis of the deposited data

Results flagged for a closer look

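Of 106 named genes examined, 3 had 1 NAM far from the other 9 on the log2 scale. ELFN2 was at 5.13 CPM in NAM 4, against 1.45 in the next sample and a median of 0.756, a gap of 0.560 of the range. ISM1 was at 51.6 CPM in NAM 3, against 8.29 in the next sample and a median of 4.50, a gap of 0.646 of the range. PAM was at 1441 CPM in NAM 3, against 1100.0 in the next sample and a median of 982, a gap of 0.527 of the range. Chance alone marks about 1 in 20 groups of this size, and the cause of these values was not tested. No value was removed for this reason.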

How the results depend on the processing

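The number of genes higher on the high side without overlap was 591, and became 366 with scaling by library size only, 136 with ranking by the other steroid genes, 1353 with 4 against 4 NAMs, 951 without NAMs 3, 6 and 8 (chosen after seeing the data), and 647 to 1200 with 1 NAM left out. The number lower was 818, and became 1003 with library size only, 216 with the other ranking, 1787 with 4 against 4 and 860 to 1600 with 1 NAM left out; fewer samples leave more genes without overlap by construction. By edgeR, 692 higher genes became 373 with library size only, 1 with the other ranking, 1414 by the Wald test of DESeq2, 1437 with CYP11A1 as a continuous term, 0 without NAMs 3, 6 and 8 (1036 at an unadjusted p under 0.05, 248 by DESeq2) and 0 to 1241 with 1 NAM left out. The 1068 lower genes became 1186 with library size only, 0 with the other ranking, 1737 by the Wald test, 1615 with the continuous term, 0 without NAMs 3, 6 and 8 (1369 unadjusted, 349 by DESeq2) and 0 to 1584 with 1 NAM left out. The median of the catecholamine list, -0.82, was -0.49 without NAMs 3, 6 and 8 and -0.96 to -0.61 with 1 NAM left out, and that of the steroid list, 0.78, was 0.56 without NAMs 3, 6 and 8, 0.98 with 4 against 4 and 0.64 to 0.90 with 1 NAM left out. In the tumors, 70 positive slopes became 18 to 73 and 2 negative slopes 1 to 6 with 1 tumor left out, and the negative ones became 6 without a filter. Of 1798 values of named genes under the alternatives, 1774 lay within 1 SD of the main value and 24 moved by 1 SD or more. Among the 1798, 22 changed sign, 0 of them in called genes. The cause of these shifts was not tested. No paired analysis was possible because each sample came from a different dog and the numbers that labels of different groups share give no pairing. Depth limits the scarce genes: 3 counts were 0.0835 to 0.156 CPM.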

Other observations

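NAMs 3, 6 and 8, which lie on both sides of the division, stood apart in several genes picked after their values were seen. INSIG1, a sterol sensor, was at 186 to 327 CPM in these 3 samples and at 16.1 to 100.1 CPM in the other 7. TAC1, the precursor of substance P, was at 59.4 to 253 against 3.98 to 31.7, and UCN, urocortin, at 17.5 to 46.7 against 0.157 to 4.13. RAB3A was at 147 to 209.9 against 39.2 to 112. NR4A2, an immediate early nuclear receptor, was at 84.3 to 347 against 9.89 to 79.6, while FOSB overlapped, at 24.4 to 179 against 2.28 to 61.3. The cause was not tested.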
